A study of Mus musculus with 48 samples.

Results

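The 35 genes described here are transcriptional targets of p53, taken by symbol from a fixed list and found among the 36854 genes of a bulk RNA-seq count table of 48 mouse sarcomas. The rule that picks them uses symbols alone, but the list was put together with earlier results of these data known, so it is not blind to them. All 35 passed the filter on low counts in primary tumours and in allografts, 34 of them at either dose alone, whereas Gdf15 passed in allografts only through the irradiated tumours. The question was which of them differed after 20 Gy in tumours whose malignant cells had been started by deleting p53. All mice had the 129/SvJae background, and p53/MCA sarcomas are muscle tumours induced by p53 deletion plus the carcinogen MCA (3-methylcholanthrene). In 32 primary tumours, Adeno-Cre (an adenovirus carrying Cre recombinase) was injected into the gastrocnemius of p53FL/FL mice aged 6 to 10 weeks, followed by 300 µg of MCA. The 16 allografts were grown from 50000 cells of a single p53/MCA line placed in the gastrocnemius of syngeneic hosts, so that they represent 1 line, and the labels state no Cre injection for these hosts. At about 150 mm3 each mouse received 200 µg of isotype control antibody or of muDX400, a murine anti-PD-1 antibody, and directly afterwards 0 or 20 Gy to the tumour-bearing hind limb. Tumours were taken on day 3, with 4 allografts and 8 primary tumours in each of the 4 combinations of dose and antibody.

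p53 is a transcription factor that is stabilised when DNA is damaged and then switches on genes for cell cycle arrest, DNA repair, apoptosis and antioxidant defence. Several of its targets, Mdm2 foremost, act back on p53 and limit it. Many of these genes also answer to other factors, among them those of the integrated stress response, of interferon signalling and of growth control. A bulk tumour sample also contains leukocytes, vessels and muscle, and whether p53 was intact in those cells was not measured. In bulk tissue, fewer cells of a type and less RNA per cell cannot be told apart.

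The stretches before the start sites are shown for 5 members because the letters that p53 recognises are written there. p53 binds a decamer called a half-site, and high-affinity sites usually hold a pair of them. The RefSeq table for GRCm38.p6 held 28 of the 35 members, and each line below gives the 250 bases before the annotated start, 5′ to 3′ on the gene's strand, in lower case with any match to the half-site consensus in capitals. Mdm2 and Ccng1 hold a match and rose after 20 Gy in 3 and 2 of the 4 dose comparisons described below. Ppm1d holds a match and passed the test in 0 of them, and Gdf15 and Dcxr rose in all 4 and hold none in these windows.
Mdm2, chr10:117710759-117711008, minus strand: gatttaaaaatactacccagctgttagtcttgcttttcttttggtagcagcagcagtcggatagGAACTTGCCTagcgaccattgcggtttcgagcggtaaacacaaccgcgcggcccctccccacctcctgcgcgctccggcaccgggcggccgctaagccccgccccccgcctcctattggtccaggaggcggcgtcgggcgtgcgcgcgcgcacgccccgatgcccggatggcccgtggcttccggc
Ccng1, chr11:40755287-40755536, minus strand: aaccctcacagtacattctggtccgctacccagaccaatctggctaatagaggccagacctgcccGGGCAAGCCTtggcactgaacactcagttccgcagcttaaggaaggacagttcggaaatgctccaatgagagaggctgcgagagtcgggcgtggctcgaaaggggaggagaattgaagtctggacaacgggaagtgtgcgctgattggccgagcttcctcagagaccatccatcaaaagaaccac
Ppm1d, chr11:85311004-85311253, plus strand: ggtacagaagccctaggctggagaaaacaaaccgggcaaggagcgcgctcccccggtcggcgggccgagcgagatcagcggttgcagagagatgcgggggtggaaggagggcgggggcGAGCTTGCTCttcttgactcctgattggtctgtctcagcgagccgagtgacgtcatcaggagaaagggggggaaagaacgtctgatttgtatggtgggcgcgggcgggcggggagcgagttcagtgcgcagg
Gdf15, chr8:70632457-70632706, minus strand: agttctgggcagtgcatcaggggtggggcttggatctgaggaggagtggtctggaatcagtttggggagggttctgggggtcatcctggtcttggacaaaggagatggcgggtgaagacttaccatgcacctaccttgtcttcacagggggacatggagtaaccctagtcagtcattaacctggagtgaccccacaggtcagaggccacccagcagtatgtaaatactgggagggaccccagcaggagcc
Dcxr, chr11:120727285-120727534, minus strand: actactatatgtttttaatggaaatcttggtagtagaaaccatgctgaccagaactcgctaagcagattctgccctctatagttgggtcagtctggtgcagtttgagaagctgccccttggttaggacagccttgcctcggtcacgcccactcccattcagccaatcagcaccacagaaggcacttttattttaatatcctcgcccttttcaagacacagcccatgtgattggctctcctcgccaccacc

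The capitals began 186 bases before the start of Mdm2 and 185 before that of Ccng1. A half-site match was present in at least 1 window of 10 of the 28 members (35.7%), against 8.2% of the 27025 genes in the table. The table holds noncoding genes too, and a gene counts if any of its windows matches, so these shares are not of like genes. Among the members with a window a half-site match was present in 4 of the 9 that passed the dose test in some comparison (Aen, Ccng1, Ckap2 and Mdm2) and in 6 of the 19 that passed in none. A pair of half-sites at most 13 bases apart was found in 0 of the 28 members and in 0.0666% of all genes. A match is a description of the letters in one window and neither a bound site nor a cause, and many p53 sites lie in introns or farther upstream. GENCODE M21 places the start of Ccng1 at 40755311 and that of Ppm1d at 85311244, so part of each of these windows lies within the annotated transcript.

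The libraries held 31.8 to 54.0 M (mega) counts, with a median of 41.1 M. Levels are given as CPM, the usual depth-normalised read count, after TMM scaling over all 48 tumours. Trp53 itself was counted in every tumour, at group means of 24.4 to 42.4 CPM, and passed the dose test in none of the 4 comparisons (log2 differences 0.13 to 0.53). A count over the whole gene includes host cells and exons outside the floxed part, so it does not check the deletion. Every marker of leukocytes, muscle and mesenchymal cells listed for these samples was above 0 in every tumour.

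Irradiated and unirradiated tumours were compared in 4 pairs of groups, allografts or primary tumours under isotype antibody or anti-PD-1, with edgeR's quasi-likelihood test. A gene is said to have risen or fallen where its p, adjusted over all genes tested by the Benjamini-Hochberg method, was under 0.05. In allografts under isotype 3 of the 35 targets rose and 0 fell, against 5.14% of all genes called in either direction and 4.40% called higher. Under anti-PD-1 4 rose and 1 fell in allografts, where 3.96% of all genes were called (3.13% higher, 0.828% lower). In primary tumours 9 rose and 0 fell under isotype, against 14.5% of all genes called (7.85% higher, 6.64% lower), and 6 rose and 0 fell under anti-PD-1, against 7.92% called (6.06% higher, 1.86% lower). The targets' median log2 difference was 0.21 and 0.29 in the allografts (isotype, then anti-PD-1) and 0.15 and 0.18 in the primary tumours, where that of all genes lay between -0.02 and 0.02.

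Of the 35 targets, 10 passed the test in at least 1 comparison and 7 in at least 2, against 19.3% and 7.64% of the 17167 genes tested in all 4. Gdf15 and Dcxr rose in all 4, Mdm2 and Sesn2 in 3, and Ccng1, Fas and Trp53inp1 in both comparisons of primary tumours. Mdm4 and Aen rose in 1 comparison, and Ckap2 fell in 1. The calls of Dcxr in isotype allografts and of Fas in anti-PD-1 primary tumours ended in most leave-one-out fits, each without 1 tumour (11 of 16 and 24 of 32). The other 25 passed in none, with log2 differences from -0.84 to 1.87. Regardless of the test, 17 of the 35 had a positive difference in all 4 comparisons, against 21.3% of those genes. By role, the calls in the order allograft isotype, allograft anti-PD-1, primary isotype and primary anti-PD-1 were 0, 1, 3 and 2 of the 4 genes that act back on p53. They were 0, 0, 3 and 2 of the 11 genes of death receptors and apoptosis, and 2, 2, 2 and 1 of the 7 genes of stress and metabolism. The 5 genes of DNA repair and nucleotide supply had 0 in each. Over all genes 5.14%, 3.96%, 14.5% and 7.92% were called in the same order, so 0 of 5 is near the share over all genes.

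**Figure D1:**
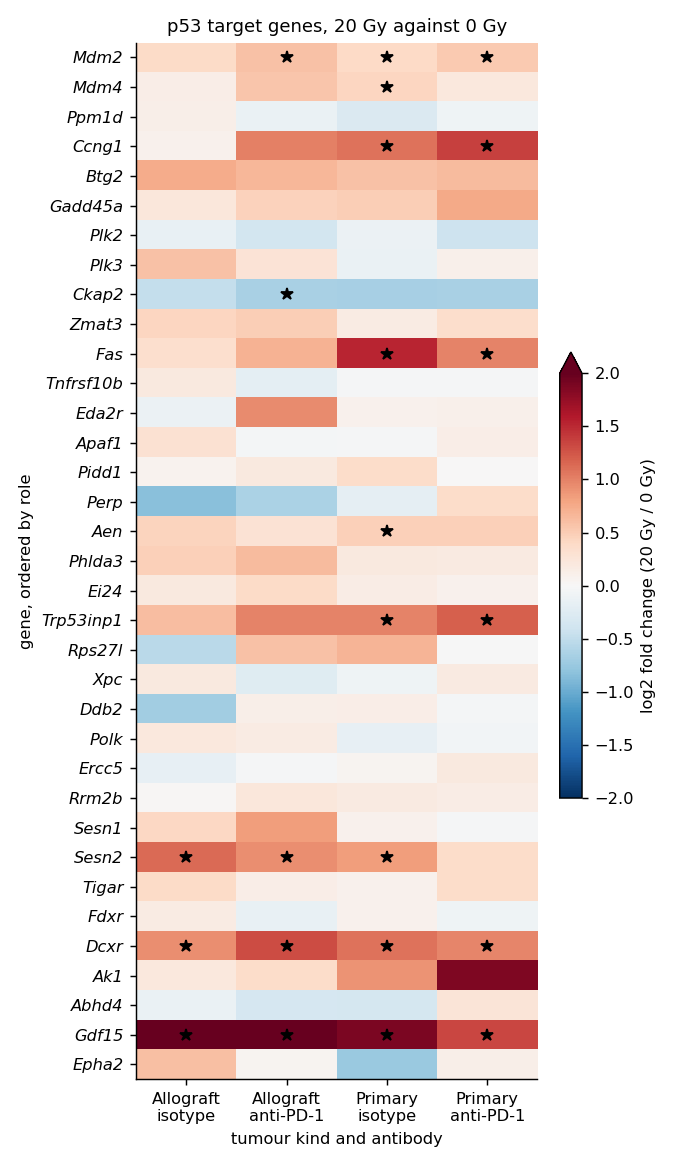
Log2 difference between 20 Gy and 0 Gy for the 35 p53 targets (lines, ordered by role) in the 4 comparisons (columns), with a star where edgeR's adjusted p was under 0.05 and the colour capped at 2 in either direction. Gdf15 and Dcxr carry a star in all 4 columns, and 25 genes carry none.

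Gdf15, on chr8:70629393-70632456 (minus strand, GRCm38, ENSMUSG00000038508), encodes a secreted cytokine of the TGF-beta superfamily that is released by stressed cells. Its level in the 4 unirradiated isotype allografts was 0.191, 0.252, 0.18 and 0.0897 CPM, and in the 4 irradiated ones 1.64, 1.7, 1.7 and 1.7 CPM. Under anti-PD-1 it was 0.16, 0.0715, 0.207 and 0.33 CPM without radiation and 1.64, 2.71, 1.73 and 1.31 CPM with it. Every irradiated allograft stood above every unirradiated allograft of its antibody arm, with an increase of 9.5-fold under isotype (log2 3.25, SE 0.40, adjusted p = 0.000909) and 9.71-fold under anti-PD-1 (log2 3.28, SE 0.40, adjusted p = 0.00219). The filter asked for 0.24 CPM in 4 allografts, which 1 of 4 unirradiated tumours reached in each arm, so that Gdf15 was tested because of its irradiated level. With no filter on low counts the differences were 3.25 and 3.30 (adjusted p = 6e-04 and 0.00205). In primary tumours under isotype its lowest, median and highest levels were 0.696, 1.85 and 4.72 CPM at 0 Gy and 5.18, 7.4 and 10.7 CPM at 20 Gy, again without overlap (3.7-fold, log2 1.89, SE 0.41, adjusted p = 0.00222). Under anti-PD-1 they were 0.532, 1.79 and 5.06 CPM at 0 Gy and 1.92, 5.74 and 8.84 CPM at 20 Gy. Here 5 of the 8 irradiated tumours stood above all 8 unirradiated ones, and the increase was 2.52-fold (log2 1.33, SE 0.41, adjusted p = 0.0384), a call that ended in 4 of 10 other settings and in 11 of 32 leave-one-out fits. Per kilobase of exon Gdf15 had the lowest level of the 35 targets in both unirradiated allograft groups (0.0961 and 0.104 CPM per kilobase), where the median over the targets was 5.63 and 6.48.

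Epha2, a receptor tyrosine kinase and the other gene placed with Gdf15 as secreted or surface signalling, passed the test in none of the comparisons. Its log2 differences were 0.60 and 0.06 in allografts (isotype, then anti-PD-1) and -0.74 and 0.12 in primary tumours.

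Among the genes that act back on p53, Mdm2 encodes the ubiquitin ligase that marks p53 for degradation and lies on chr10:117688875-117710758 (minus strand, ENSMUSG00000020184). It was measured at 53.7, 55.8, 66.0 and 50.9 CPM in unirradiated isotype allografts and at 91.7, 64.0, 69.3 and 65.2 CPM in irradiated ones. These groups overlapped, and the difference did not pass the test (log2 0.38, SE 0.13, adjusted p = 0.129). Under anti-PD-1 the allografts had 66.7, 53.9, 57.4 and 56.1 CPM at 0 Gy and 80.7, 104.6, 87.5 and 72.5 CPM at 20 Gy. All 4 irradiated tumours were above the unirradiated ones, and Mdm2 rose 1.49-fold (log2 0.58, SE 0.13, adjusted p = 0.0284), a call that ended in 5 of 9 other settings and in 6 of 16 leave-one-out fits. In primary tumours under isotype its lowest, median and highest levels were 45.1, 61.2 and 81.4 CPM at 0 Gy and 70.3, 82.2 and 85.9 CPM at 20 Gy. It rose 1.32-fold there (log2 0.40, SE 0.12, adjusted p = 0.0209), with 4 of 8 irradiated tumours above every unirradiated one. Under anti-PD-1 the levels were 44.8, 57.9 and 73.5 CPM at 0 Gy and 52.6, 84.8 and 102.1 CPM at 20 Gy, a 1.44-fold rise (log2 0.52, SE 0.12, adjusted p = 0.00603) with 7 of 8 above.

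Ccng1, which encodes cyclin G1, a partner of a phosphatase that acts on Mdm2, lies on chr11:40748552-40755311 (minus strand, ENSMUSG00000020326). Its lowest, median and highest levels in primary tumours under isotype were 64.9, 99.3 and 138.8 CPM at 0 Gy, and at 20 Gy the median was 173.9, the highest 487.8 and the mean 214.8 ± 128.7 CPM (SD, n = 8). Under anti-PD-1 the 0 Gy tumours had a lowest level of 81.1, a median of 102.2 and a mean of 98.5 ± 11.5 CPM (n = 8), and the lowest, median and highest levels at 20 Gy were 81.3, 135.5 and 805.5 CPM. The irradiated groups spread far upward, with 5 of 8 and 7 of 8 tumours above every unirradiated one. Ccng1 rose 2.11-fold under isotype (log2 1.08, SE 0.36, adjusted p = 0.0392) and 2.57-fold under anti-PD-1 (log2 1.36, SE 0.36, adjusted p = 0.0176). The isotype call ended in 4 of 10 other settings and in 9 of 32 leave-one-out fits. Isotype allografts had 98.6, 105.5, 228.7 and 184.3 CPM at 0 Gy and 141.7, 173.2, 201.2 and 132.1 CPM at 20 Gy, and the anti-PD-1 ones 214.6, 108.4, 116.5 and 110.7 CPM at 0 Gy and 146.3, 549.1, 277.1 and 124.9 CPM at 20 Gy. The allograft groups overlapped and neither difference passed the test (log2 0.09, SE 0.41, adjusted p = 0.943 and log2 1.01, SE 0.41, adjusted p = 0.19).

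Mdm4, an Mdm2 relative that inhibits p53, averaged 39.3 ± 7.18 CPM (SD, n = 8) in unirradiated and 52.4 ± 9.07 CPM (n = 8) in irradiated primary tumours under isotype and rose 1.35-fold (log2 0.43, SE 0.13, adjusted p = 0.029). Mdm4 lost this call in 2 of 10 other settings and in 5 of 32 leave-one-out fits. In the other comparisons its differences were 0.13, 0.55 and 0.21 (allograft isotype, allograft anti-PD-1 and primary anti-PD-1), none past the test. Ppm1d encodes the phosphatase Wip1, which switches off p53 and damage kinases. Its group means lay between 14.0 and 17.4 CPM, and its log2 differences were 0.12, -0.14, -0.29 and -0.08 in the 4 comparisons. The smallest adjusted p among them was 0.0825, in primary tumours under isotype. With all 48 tumours in the edgeR fit Ppm1d was called there (adjusted p = 0.0256). In the reported fits Mdm2, Ccng1 and Mdm4 were thus called in at least 1 comparison and Ppm1d in none.

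**Figure D2:**
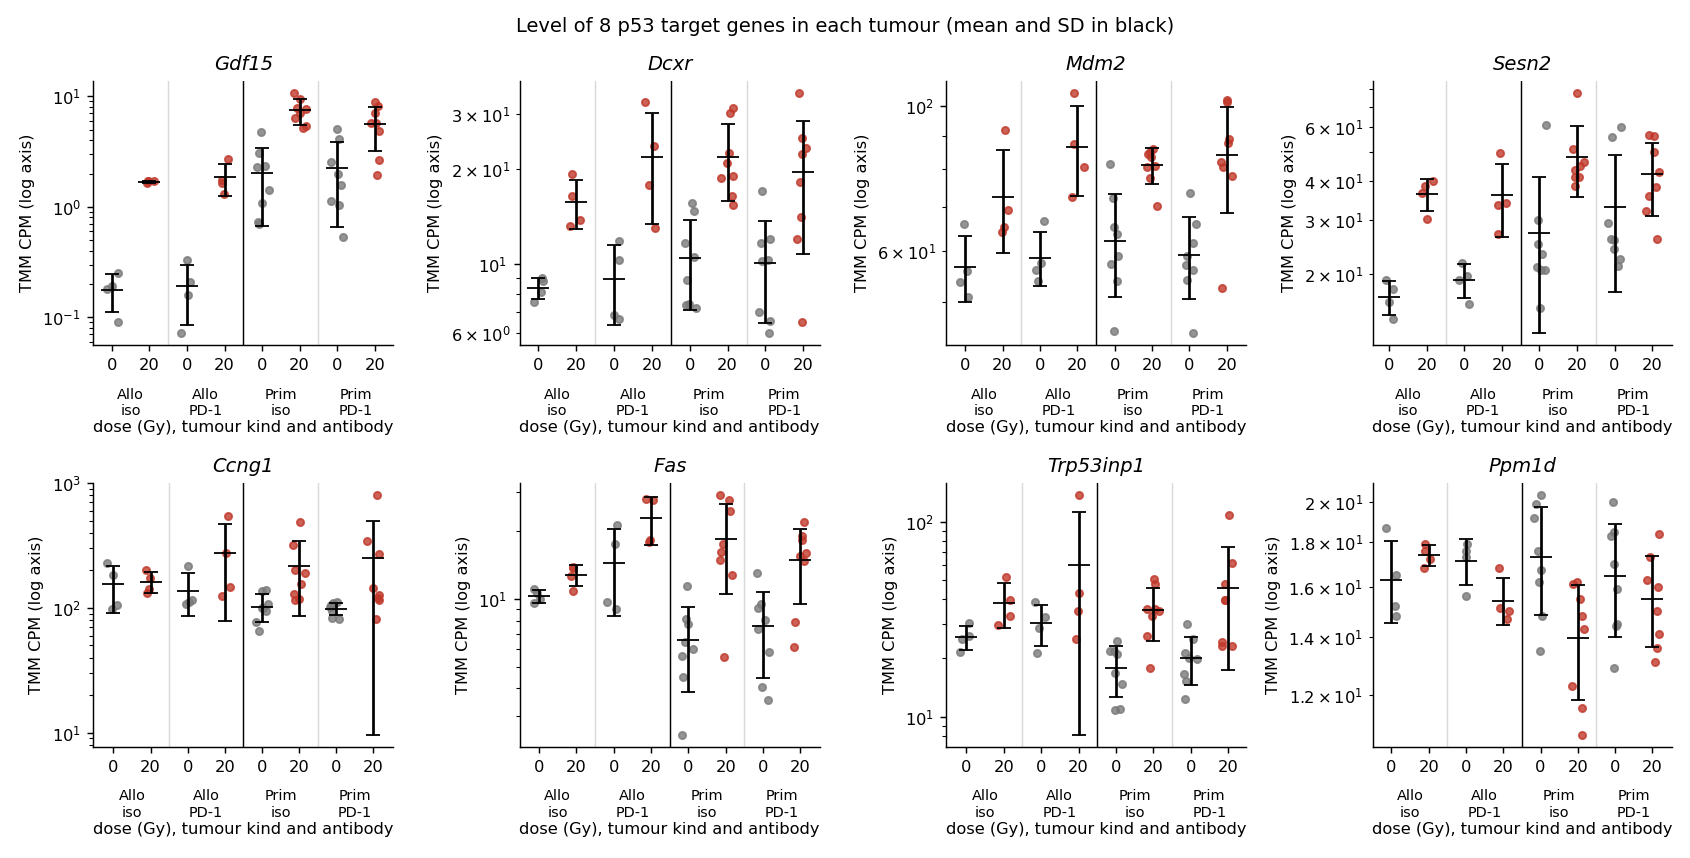
CPM on a log axis in each of the 48 tumours for Gdf15, Dcxr, Mdm2, Sesn2, Ccng1, Fas, Trp53inp1 and Ppm1d in the 8 groups, with 1 point per tumour and bars for the mean and SD. Gdf15 at 20 Gy lies above 0 Gy without overlap in both allograft arms and in isotype primary tumours, whereas the Ppm1d means stay between 14.0 and 17.4 CPM.

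Dcxr, dicarbonyl and L-xylulose reductase, on chr11:120725399-120727281 (minus strand, ENSMUSG00000039450), reduces reactive carbonyl compounds and sugars. Its levels in isotype allografts were 7.52, 8.8, 8.13 and 8.97 CPM at 0 Gy and 16.4, 13.8, 19.3 and 13.2 CPM at 20 Gy. Under anti-PD-1 they were 11.8, 6.67, 10.3 and 6.87 CPM at 0 Gy and 17.8, 32.7, 23.8 and 13.0 CPM at 20 Gy. Neither pair of groups overlapped, and Dcxr rose 1.91-fold under isotype (log2 0.93, SE 0.25, adjusted p = 0.0407) and 2.46-fold under anti-PD-1 (log2 1.30, SE 0.25, adjusted p = 0.0121). The isotype call ended in 6 of 9 other settings and in 11 of 16 leave-one-out fits, with differences of 0.32 to 1.11 and adjusted p of 0.014 to 0.804 over all of them. The anti-PD-1 call ended in 3 of 9 and in 1 of 16. In primary tumours under isotype the lowest, median and highest levels were 7.24, 9.68 and 15.6 CPM at 0 Gy and 15.4, 19.9 and 31.3 CPM at 20 Gy. Under anti-PD-1 they were 5.99, 10.2 and 17.0 CPM at 0 Gy and 6.51, 20.3 and 35 CPM at 20 Gy. In these 2 comparisons 7 and 5 of the 8 irradiated tumours were above every unirradiated one, with rises of 2.12-fold (log2 1.08, SE 0.26, adjusted p = 0.00536) and 1.96-fold (log2 0.97, SE 0.26, adjusted p = 0.0203).

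Sesn2, on chr4:132492032-132510501 (minus strand, ENSMUSG00000028893), encodes sestrin 2, which restrains mTORC1 signalling under stress. In isotype allografts it was at 16.2, 17.8, 19.1 and 14.2 CPM at 0 Gy and at 30.2, 36.5, 40.2 and 38.7 CPM at 20 Gy. Under anti-PD-1 it was at 21.7, 15.9, 19.1 and 19.6 CPM at 0 Gy and at 26.9, 49.5, 33.5 and 34.1 CPM at 20 Gy. The groups were apart in both arms, with rises of 2.21-fold (log2 1.14, SE 0.17, adjusted p = 0.00233) and 1.91-fold (log2 0.93, SE 0.17, adjusted p = 0.0113). These calls ended in 2 and 3 of 9 other settings and in 0 of 16 leave-one-out fits each. Primary tumours under isotype had 15.5, 22 and 61.0 CPM (lowest, median and highest) at 0 Gy and 38.7, 44.2 and 77.6 CPM at 20 Gy, and Sesn2 rose 1.79-fold (log2 0.84, SE 0.25, adjusted p = 0.0224), although 1 of 8 irradiated tumours exceeded the highest unirradiated one. Under anti-PD-1 the levels were 21.1, 25.8 and 60.0 CPM at 0 Gy and 25.9, 40.6 and 56.8 CPM at 20 Gy, and the difference did not pass the test (log2 0.37, SE 0.25, adjusted p = 0.397).

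The remaining 5 genes of stress and metabolism passed the test in none of the 4 comparisons. Sesn1, a sestrin related to Sesn2, had log2 differences of 0.42, 0.84, 0.09 and -0.02 (allograft isotype, allograft anti-PD-1, primary isotype and primary anti-PD-1). Ak1, the adenylate kinase abundant in muscle, had 0.21, 0.37, 0.90 and 1.87, the last with SE 0.61 and an adjusted p of 0.0523. Ak1 was called in that last comparison with DESeq2, with DESeq2 size factors in edgeR and with all 48 tumours in the fit. Its irradiated primary tumours under anti-PD-1 ranged from 35.9 to 783 CPM (median 52.1). Tigar, which lowers glycolytic flux, had differences of 0.08 to 0.38, Fdxr, a mitochondrial reductase, of -0.15 to 0.17, and Abhd4, a lipid hydrolase, of -0.35 to 0.25.

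Of the death receptor and apoptosis genes, Fas encodes the receptor for Fas ligand and lies on chr19:34290666-34327772 (plus strand, ENSMUSG00000024778). In primary tumours under isotype its lowest, median and highest levels were 2.48, 6.21 and 11.4 CPM at 0 Gy and 5.54, 16.9 and 29.1 CPM at 20 Gy. Under anti-PD-1 they were 3.54, 7.7 and 13.1 CPM at 0 Gy and 6.1, 15.8 and 22.1 CPM at 20 Gy. In the irradiated groups 7 and 6 of 8 tumours were above every unirradiated one, and Fas rose 2.87-fold (log2 1.52, SE 0.32, adjusted p = 0.00166) and 1.99-fold (log2 0.99, SE 0.32, adjusted p = 0.0477). The anti-PD-1 call ended in 5 of 10 other settings and in 24 of 32 leave-one-out fits, with differences of 0.48 to 1.15 and adjusted p of 0.0185 to 0.441 over all of them. Isotype allografts had 9.59, 10.6, 11.1 and 9.95 CPM at 0 Gy and 13.8, 10.9, 13.9 and 12.7 CPM at 20 Gy, and anti-PD-1 allografts 21.3, 8.99, 17.6 and 9.69 CPM at 0 Gy and 18.3, 27.5, 27.9 and 17.9 CPM at 20 Gy. These groups overlapped, and the differences did not pass the test (log2 0.34, SE 0.24, adjusted p = 0.512 and log2 0.69, SE 0.24, adjusted p = 0.127).

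Trp53inp1, on chr4:11156431-11174379 (plus strand, ENSMUSG00000028211), encodes a stress protein that promotes p53-dependent death and autophagy. Its lowest, median and highest levels in primary tumours under isotype were 10.9, 19.0 and 24.6 CPM at 0 Gy and 17.9, 35.2 and 50.6 CPM at 20 Gy. Under anti-PD-1 they were 12.4, 20.0 and 29.8 CPM at 0 Gy and 23, 39.8 and 107.6 CPM at 20 Gy. With 7 and 5 of 8 irradiated tumours above every unirradiated one, it rose 1.99-fold (log2 0.99, SE 0.27, adjusted p = 0.0133) and 2.3-fold (log2 1.20, SE 0.27, adjusted p = 0.0069). The isotype allografts had 30.4, 26, 25.1 and 21.6 CPM at 0 Gy and 29.6, 33.0, 52.0 and 39.7 CPM at 20 Gy, and the anti-PD-1 allografts 28.6, 32.6, 38.6 and 21.4 CPM at 0 Gy and 25.1, 137.2, 42.9 and 35 CPM at 20 Gy. The allograft differences did not pass the test (log2 0.61, SE 0.40, adjusted p = 0.47 and log2 0.99, SE 0.41, adjusted p = 0.193).

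Aen, an exonuclease that acts in apoptosis, averaged 33.7 ± 8.34 CPM (SD, n = 8) at 0 Gy and 46.1 ± 12.8 CPM (n = 8) at 20 Gy in primary tumours under isotype and rose 1.38-fold (log2 0.47, SE 0.16, adjusted p = 0.0465). That call ended in 6 of 10 other settings and in 13 of 32 leave-one-out fits. Its other differences were 0.44, 0.29 and 0.47 (allograft isotype, allograft anti-PD-1 and primary anti-PD-1), with adjusted p of 0.0648, 0.239 and 0.063. Tnfrsf10b, the mouse death receptor for TRAIL, had group means of 39.2 to 52.8 CPM and differences of 0.20, -0.19, -0.02 and -0.02, none past the test. Over all genes tested in all 4 comparisons, 19.3% passed in at least 1. Of the 11 genes of this role, 8 passed in none. Among them, Phlda3, an inhibitor of Akt, had differences of 0.18 to 0.64, Apaf1, the scaffold of the apoptosome, of -0.04 to 0.31, and Eda2r, an ectodysplasin receptor, of -0.11 to 0.95. Perp, a membrane protein of desmosomes, had -0.84 and -0.63 in allografts and -0.18 and 0.36 in primary tumours. Pidd1, a death domain scaffold, had 0.00 to 0.36, and Ei24, a protein of the endoplasmic reticulum, 0.09 to 0.38. Rps27l, a relative of the ribosomal protein gene Rps27, had -0.54, 0.59, 0.68 and -0.01, and reads of these near-identical genes may have been split or dropped in counting.

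Among the genes of growth arrest, checkpoint and cell cycle 0 rose. Over all genes 3.13% to 7.85% rose in the 4 comparisons. Ckap2, a spindle protein made in dividing cells, fell by 0.65 on the log2 scale in anti-PD-1 allografts (SE 0.14, adjusted p = 0.0199), from 32.1 ± 3.85 CPM (SD, n = 4) to 20.1 ± 2.79 CPM (n = 4). Its differences in the other comparisons were -0.48, -0.66 and -0.65 (allograft isotype, primary isotype and primary anti-PD-1), with adjusted p of 0.0617, 0.0737 and 0.105. In allografts of both arms, all 4 irradiated tumours were below every unirradiated one. Of the 12 proliferation markers, 3 fell in that comparison, and 0, 9 and 7 fell in allografts under isotype and in primary tumours under isotype and anti-PD-1. Whether Ckap2 moved with the number of dividing cells was not tested.

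Btg2, an antiproliferative gene, had positive differences of 0.58 to 0.74 in all 4 comparisons, with adjusted p from 0.141 to 0.213. Gadd45a, a growth arrest and damage gene, had 0.22 to 0.76, and Zmat3, an RNA-binding target of p53, 0.16 to 0.49. Of the polo-like kinases, Plk2 was at -0.42 to -0.11 and Plk3 at -0.13 to 0.58, with a positive difference in 3 of the 4 comparisons. Plk2 was the 1 uncalled target with a negative difference in all 4 comparisons.

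The 5 genes of DNA repair and nucleotide supply passed the test in none of the comparisons. For comparison, 19.3% of the 17167 genes tested in all 4 passed in at least 1. Xpc and Ddb2, which recognise ultraviolet lesions, had differences of -0.25 to 0.20 and of -0.70 to 0.14. Ercc5, a repair nuclease, had -0.17 to 0.20, Polk, a translesion polymerase, -0.17 to 0.21, and Rrm2b, the p53-inducible subunit of ribonucleotide reductase, 0.02 to 0.23. Their smallest adjusted p was 0.122, for Ddb2 in isotype allografts.

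Other genes of the pathway were counted for comparison. Of 14 genes that encode p53, its relatives and its regulators, 13 were tested and 0 were called in each of the 4 comparisons. Of 20 further p53 targets, 5, 4, 6 and 5 rose (allograft isotype, allograft anti-PD-1, primary isotype and primary anti-PD-1) and 0 fell. Cdkn1a, the cyclin-dependent kinase inhibitor p21, rose in all 4 comparisons. In primary tumours it went from 47.2 ± 17.4 to 217.9 ± 35.2 CPM (SD, n = 8 each) under isotype (log2 2.22, SE 0.25, adjusted p = 1.95e-06) and from 45.3 ± 8.22 to 246.7 ± 121.6 CPM under anti-PD-1 (log2 2.46, SE 0.25, adjusted p = 3.76e-07). Its rise in allografts was 1.79 under isotype and 1.75 under anti-PD-1 on the log2 scale (SE 0.26 in both, adjusted p = 0.00174 and 0.00483). Casp1, an inflammatory protease expressed in myeloid cells, rose in all 4 comparisons (log2 1.23, 1.44, 1.57 and 1.06), and Bax, a pore-forming apoptosis protein, in 3 (0.73 in anti-PD-1 allografts, 0.74 and 0.48 in primary tumours). Pml, a nuclear body protein also induced by interferon, rose in 3 as well (1.38 in isotype allografts, 0.90 and 0.76 in primary tumours).

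The antibody alone was compared within each tumour kind and dose. Of the 35 targets 0 passed edgeR's test in each of these 4 comparisons, where 0% of all genes was called, and at an unadjusted p under 0.05 there were 0, 1, 1 and 3 targets (allografts at 0 and 20 Gy, primary tumours at 0 and 20 Gy), against 1.68%, 3.84%, 2.32% and 8.12% of all genes. DESeq2 called 0 in each. The difference of the dose effect between antibody arms was called for 0 targets in allografts and 0 in primary tumours (0% of all genes in both, 0 targets by DESeq2). At an unadjusted p under 0.05 there was 1 target in each, against 1.52% and 4.25% of all genes. Sesn2 in primary tumours, called under isotype and not under anti-PD-1, is therefore not shown to differ between the arms.

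The dose effect was also compared between primary tumours and allografts. Of the 35 targets 0 were called under isotype, where 0.00517% of all genes was called, and 0 under anti-PD-1, where 0% was. At an unadjusted p under 0.05 there were 6 and 3 targets, against 9.90% and 4.77% of all genes, and DESeq2 called 0 targets in both. For Gdf15 the dose effect in primary tumours minus that in allografts was -1.35 on the log2 scale under isotype (SE 0.66, edgeR adjusted p = 0.502) and -1.94 under anti-PD-1 (SE 0.66, edgeR adjusted p = 0.905), neither past the test. The Fas effect was 1.19 larger in primary tumours under isotype (SE 0.49, adjusted p = 0.478). Targets called in primary tumours alone, such as Ccng1, Fas and Trp53inp1, are thus not shown to respond differently in allografts.

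In the unirradiated isotype groups, also taken on day 3, 2 of the 35 targets differed between the tumour kinds, against 10.0% of all genes called in either direction (6.03% higher and 3.99% lower in primary tumours). The animal identifiers of these 4 allografts all began with 5 and those of the 8 primary tumours with 4. Tumour kind and identifier digit thus cannot be told apart here. Gdf15 was 11.2-fold higher in primary tumours (2.04 ± 1.37 CPM, SD, n = 8) than in allografts (0.178 ± 0.0669 CPM, n = 4), with a log2 difference of 3.48 (SE 0.61, adjusted p = 0.00433). All 8 primary tumours were above all 4 allografts, and only the primary tumours carried Gdf15 past the filter on low counts in this comparison. Sesn1 was 1.76-fold higher, at 39.6 ± 8.83 against 22.4 ± 4.66 CPM (log2 0.81, SE 0.20, adjusted p = 0.0236), again without overlap. With all 48 tumours in the fit Sesn1 was not called. The median difference over the 35 targets was -0.01. The irradiated allografts, at 1.31 to 2.71 CPM of Gdf15, lay within the range of the unirradiated primary tumours.

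**Figure D3:**
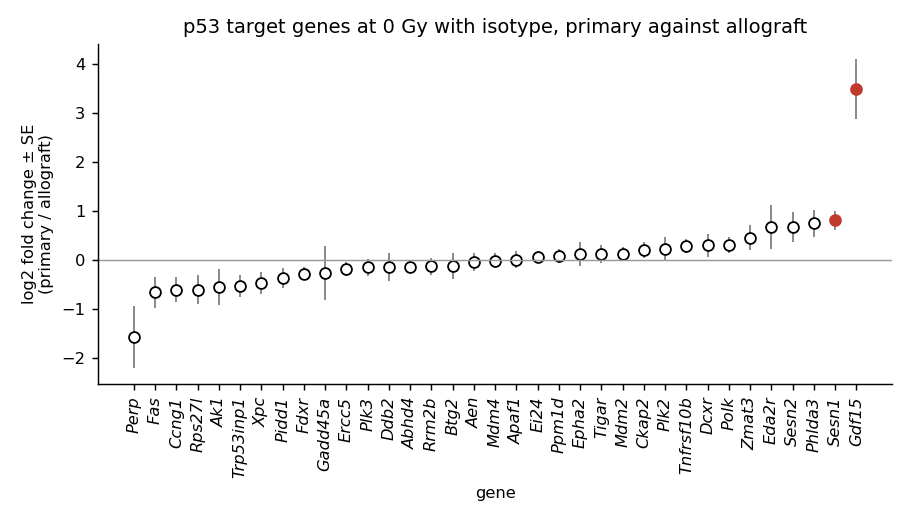
Log2 difference between primary tumours and allografts at 0 Gy under isotype for the 35 p53 targets, with bars of 1 SE and genes with an adjusted p under 0.05 in red. Gdf15 (3.48) and Sesn1 (0.81) are in red, and the others lie between -1.57 and 0.75.

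Marker genes of host cells differed with the dose as well. Of 10 general leukocyte markers 9, 4, 9 and 5 rose after 20 Gy (allograft isotype, allograft anti-PD-1, primary isotype and primary anti-PD-1) and 0 fell. Their summed level was 1130 to 2350 CPM in unirradiated and 2800 to 4260 CPM in irradiated isotype allografts, and 1240 to 2820 against 3770 to 4790 CPM under anti-PD-1, without overlap. In primary tumours it was 996.6 to 1680 against 1500 to 3630 CPM under isotype and 1030 to 1620 against 921.2 to 3900 CPM under anti-PD-1, with overlap. Of the 10 interferon-response genes 10, 9, 10 and 9 rose. Of the 12 skeletal muscle markers 0 were called, yet their sum reached 52000 CPM in replicate 4 of the irradiated isotype primary tumours and 92800 CPM in replicate 4 of the irradiated anti-PD-1 ones, where no unirradiated primary tumour exceeded 8710 CPM. The latter tumour held the highest Ccng1, 805.5 CPM.

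With the leukocyte level of each tumour added to the model, 0 of the 35 targets were called in each allograft comparison, as were 0% of all genes. In primary tumours 1 target was called under isotype (Gdf15) and 1 under anti-PD-1 (Mdm2), against 3.80% and 3.71% of all genes. In allografts the level was nearly aligned with the dose, so that the 2 cannot be told apart there. The Gdf15 difference was as large as before, at 3.19, 3.22, 1.98 and 1.43 (allograft isotype, allograft anti-PD-1, primary isotype and primary anti-PD-1), though with a larger error (SE 0.64 in isotype allografts, where the adjusted p was 0.188). Sesn2 had 0.91, 0.71, 0.89 and 0.41. The Dcxr difference became 0.32, 0.75, 0.35 and 0.37, and that of Fas -0.50, -0.04, 0.78 and 0.48. Mdm2 had 0.00, 0.22, 0.27 and 0.43, and Ccng1 -0.62, 0.27, 0.34 and 0.61. Which cells carried the transcripts was not tested.

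**Figure D4:**
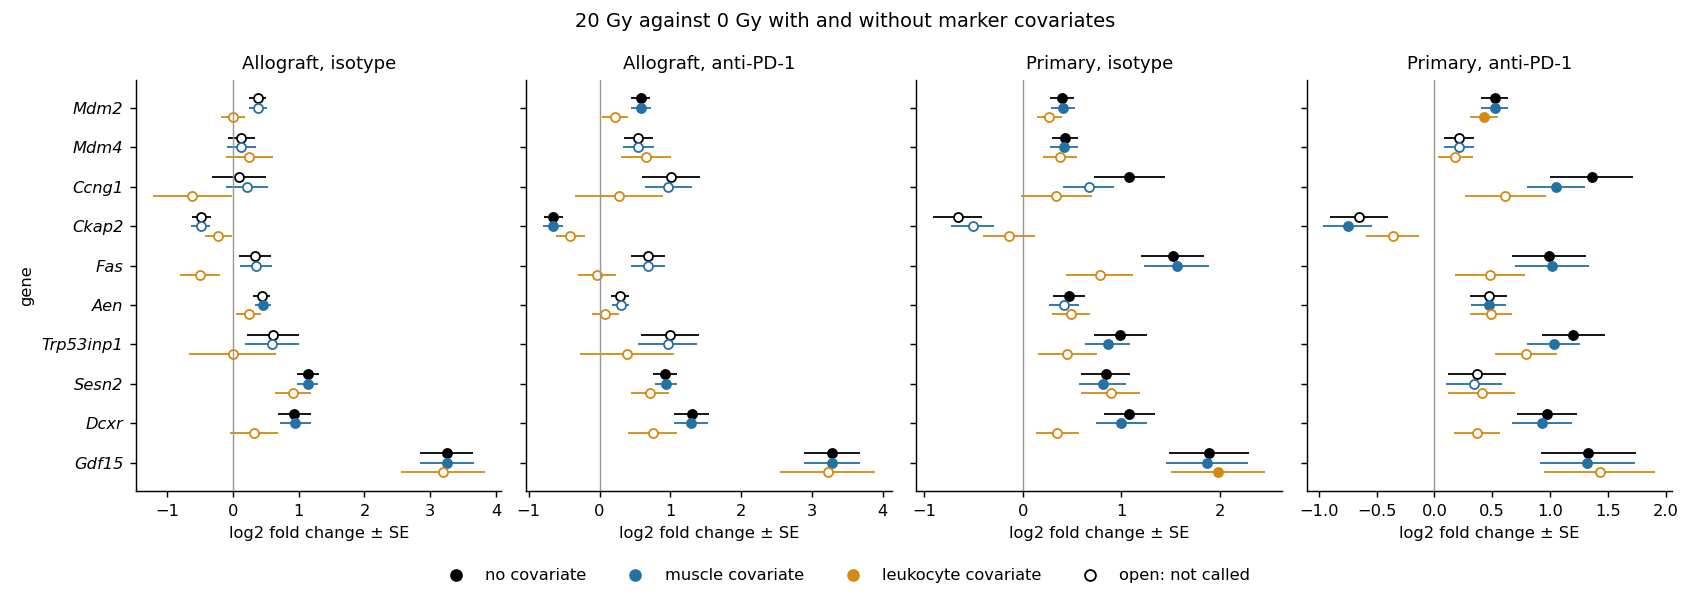
Log2 difference between 20 Gy and 0 Gy, with bars of 1 SE, for the 10 targets called at least once, in the model with no added term, with the muscle marker level and with the leukocyte marker level, and open symbols where the adjusted p was 0.05 or more. Gdf15 stays near its first value in all 4 comparisons (3.19, 3.22, 1.98 and 1.43 with the leukocyte term). With the leukocyte term Dcxr, Mdm2, Fas, Ccng1 and Trp53inp1 are lower in all 4. In allografts Dcxr stays near its first value with the muscle term (0.95 under isotype and 1.29 under anti-PD-1).

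With the muscle level in the model, 4, 6, 8 and 8 targets were called (allograft isotype, allograft anti-PD-1, primary isotype and primary anti-PD-1), against 5.22%, 4.01%, 14.1% and 9.25% of all genes. Ccng1 in primary tumours under isotype was no longer called (log2 0.67, adjusted p = 0.0855), and under anti-PD-1 it was (log2 1.05). Leaving out the 2 primary tumours whose muscle sum was above 50000 CPM was a choice made after seeing the data. Without them 9 targets were called under isotype, of which 8 were among the 9 reported, with Aen lost (log2 0.42, adjusted p = 0.0623) and Rps27l added (log2 0.82, adjusted p = 0.0399), while the genes called over the whole table went from 2575 to 2692. Under anti-PD-1 2 were called (Mdm2 and Trp53inp1), where those went from 1407 to 886. The 4 calls lost there had log2 differences of 0.96 for Fas (0.99 with all tumours), 1.35 for Gdf15 (1.33), 0.82 for Dcxr (0.97) and 0.83 for Ccng1 (1.36), with adjusted p of 0.0958, 0.063, 0.0664 and 0.0533.

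**Figure D5:**
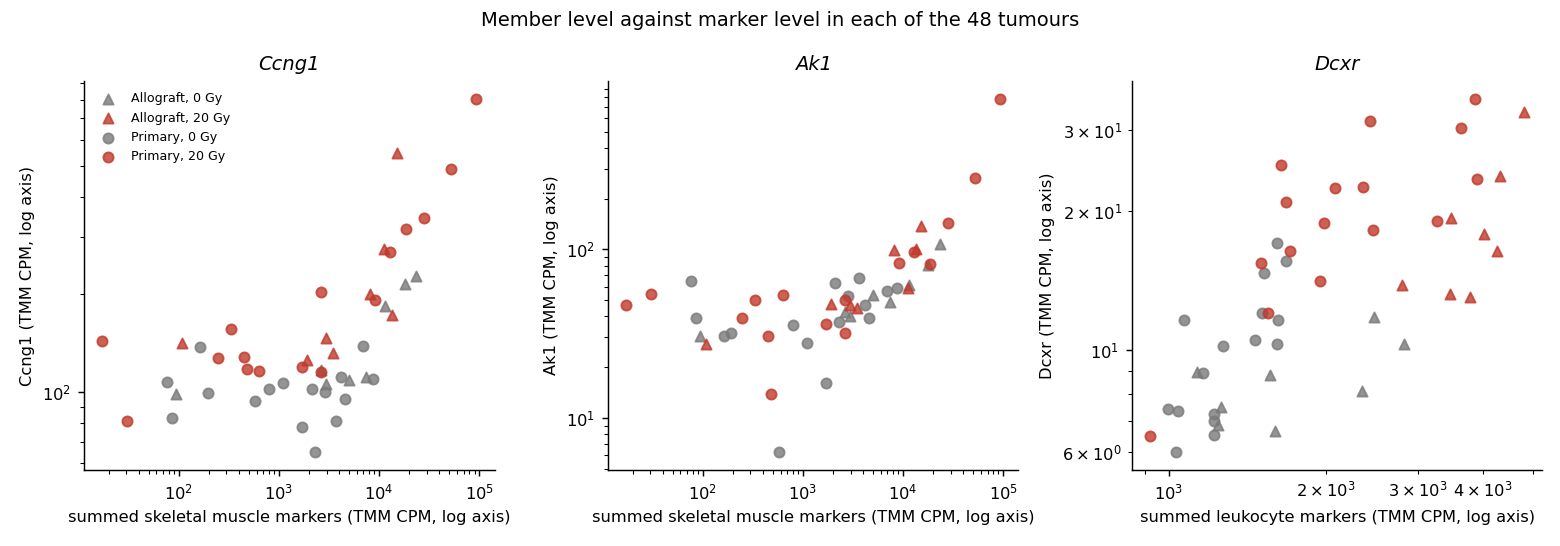
CPM of Ccng1 and Ak1 against the summed level of the muscle markers, and of Dcxr against the summed level of the leukocyte markers, with 1 point per tumour on log axes. Colours give the dose, and triangles are allografts and circles primary tumours. The tumour with the highest muscle sum (92800 CPM) has the highest Ccng1 (805.5 CPM) and the highest Ak1 (783 CPM).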

How the data were processed

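Bulk tumour RNA was captured with oligo-dT and made into strand-specific libraries, per the labels' protocols. Trimmomatic 0.36, STAR, HTSeq and the build mm10 are named in the submitters' processing notes; the annotation release and strand setting are not given in the sources used here. The values are raw read counts per gene as deposited by the authors in a table of a first run, holding 36854 genes, of which 36796 could be paired with a symbol and 58 could not. Totals were 31.8 to 54.0 M (mega) counts per tumour, at which Gdf15 in the unirradiated allografts rests on 4 to 13 counts per tumour.

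Counts were fitted with edgeR 4.0.16 (limma 3.58.1, R 4.3.3): TMM scaling, filterByExpr by group, quasi-likelihood F test, Benjamini-Hochberg adjustment over all genes tested, and SE from the fold change and F. The 4 groups of a tumour kind were fitted together (17746 genes in allografts, 17770 in primary tumours), all 48 tumours for the interaction with tumour kind (19327 genes), and 2 groups for the unirradiated comparison (17357 genes). DESeq2 1.42.0 and other settings were alternatives, and the fit was tested on simulated data. Simulated 2-fold changes were recovered for 33% of genes in isotype allografts and 49% in isotype primary tumours, and 4-fold changes for 66% and 73%. A target that did not pass the test is therefore not shown to be unchanged. Figures and sequence searches used Python 3.11.15. Each tumour was 1 library; replicate numbers follow accession order, and p-values measure the spread between these tumours.

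Members and lists were chosen with earlier results of these data known. Members called in at least 2 of the 4 dose comparisons are given in full, as are Mdm2, Gdf15 and Fas, and Mdm4, Ppm1d and Tnfrsf10b are given by group values whatever their calls. The other members are given by range and counts, and of the further pathway genes those called in at least 3. Gene positions are from GENCODE M21 (GRCm38) and the sequences before start sites from RefSeq (GRCm38.p6). In them 7 motifs were searched on both strands, after the expression results were known, and all 7 are reported.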

Additional observations from a re-analysis of the deposited data

Results flagged for a closer look

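Dixon's criterion was applied to the genes given with values in the groups of 4 or 8 tumours. By it, 12 values (10.7% of the sets examined) stood apart from the rest of their group. Chance meets the criterion in about 1 of 20 groups where values are normally distributed. It was applied here to CPM rather than log CPM, so that rate need not hold. Ccng1 was highest in replicate 1 of the unirradiated anti-PD-1 allografts (214.6 CPM, next 116.5) and in replicate 4 of the irradiated anti-PD-1 primary tumours (805.5 CPM, next 345.4), 2 tumours with muscle marker sums of 18000 and 92800 CPM. Trp53inp1 was highest in replicate 2 of the irradiated anti-PD-1 allografts (137.2 CPM, next 42.9), with a muscle sum of 15300 CPM, and in the same primary tumour as Ccng1 (107.6 CPM, next 61.5). The part of muscle RNA in these values was not tested.

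Ckap2 was lowest, at 15.9 CPM, in that same allograft (next 21.4) and highest in replicate 8 of the unirradiated isotype primary tumours (57.8 CPM, next 41.5) and replicate 6 of the unirradiated anti-PD-1 ones (76.6 CPM, next 37.8). Sesn2 was highest in replicate 2 of the unirradiated (61 CPM, next 30) and replicate 8 of the irradiated isotype primary tumours (77.6 CPM, next 50.9). Tnfrsf10b was lowest in replicate 7 of the unirradiated isotype primary tumours (35.2 CPM, next 49.4), and Cdkn1a, no member, was highest in replicate 4 of that group (85.6 CPM, next 51.9). Gdf15 was lowest in replicate 1 of the irradiated isotype allografts, at 1.64 CPM against 1.7 CPM in the next.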

How the results depend on the processing

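Counts of called targets are given in the order allograft isotype, allograft anti-PD-1, primary isotype and primary anti-PD-1, where the reported ones are 3, 5, 9 and 6, with 912, 703, 2575 and 1407 called over all genes. They were 5, 5, 10 and 8 with DESeq2 (1530, 1664, 3045 and 2188 over all genes), 3, 5, 9 and 7 with its size factors in edgeR (882, 731, 2438 and 1483), 2, 4, 6 and 4 with no filter on low counts (715, 520, 2084 and 1112), 0, 0, 1 and 1 with the leukocyte level (0, 0, 676 and 660), 2, 4, 8 and 6 with Xist above 10 CPM as a term (500, 507, 2479 and 1329), and 2, 5, 10 and 5 with the first digit of the animal identifier as a term (196, 670, 2757 and 1023). Fitting only the groups compared gave 3, 0, 10 and 3 (1041, 1, 2173 and 822 over all genes), and fitting all 48 tumours together gave 1, 1, 12 and 9 (372 or fewer in each allograft comparison, 3532 and 2156 in the primary ones). The 12 in isotype primary tumours were the 9 reported plus Ppm1d, Ckap2 and Abhd4. In that comparison the differences of Ppm1d and Ckap2 were below 0 in every alternative fit (-0.33 to -0.16 and -0.74 to -0.14). Between tumour kinds at 0 Gy the count of 2 (1738 over all genes) became 3 with DESeq2 (Fdxr added, 2868) and 1 with all 48 tumours (Sesn1 lost, 1993). Without the tumours rich in muscle, chosen after seeing the data, primary isotype had 9 (2692) and primary anti-PD-1 2 (886). The cause of these shifts was not tested.

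Leaving out 1 tumour at a time gave 2 to 6, 2 to 6, 6 to 11 and 2 to 10 targets, 1 to 3 between tumour kinds at 0 Gy, and 0 in every antibody and interaction comparison. Over all genes the first 5 ranges were 294 to 1415, 184 to 1275, 1706 to 3091, 896 to 1928 and 732 to 2187. The isotype allografts had 6 (1415 over all genes) without unirradiated replicate 3, and the anti-PD-1 allografts 3 and 2 (266 and 184) without unirradiated replicates 2 and 4. Primary anti-PD-1 had 2 (896) without irradiated replicate 4 and 10 (1866) without irradiated replicate 5, the tumour with the lowest leukocyte sum of its group, 921.2 CPM. Between tumour kinds the count was 1 without allograft replicate 1 or 2 (973 and 732) and 3 without primary replicate 3 (1482). Among the calls lost were Dcxr in isotype allografts in 11 of 16 fits, Mdm2 in anti-PD-1 allografts in 6 of 16, Aen and Ccng1 in isotype primary tumours in 13 and 9 of 32, and Fas and Gdf15 in anti-PD-1 primary tumours in 24 and 11 of 32. For the members named with values, 23 differences were called as reported. Of their 830 fits under the alternatives 17.1% ended the call and 0 reversed it. Most of these fits left out 1 tumour and shared all others with the reported fit, so the 17.1% gives the changed settings little weight. Of the 778 fits of the 25 other differences, 3.73% made a call.

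No paired analysis was possible because the replicate numbers follow accession order and the labels tie no tumour of one group to a tumour of another. Among allografts, 2 of 8 unirradiated and 6 of 8 irradiated tumours had Xist above 10 CPM, and the identifier digit was unevenly spread over the isotype groups, so these differ with the dose.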

Other observations

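Of the 7 motifs searched in the 250 bases before the start, the p53 half-site and the pair are described above, and the other 5 are given here as shares of genes, with no test. TGATGNAAT, the letters of a site for factors of the integrated stress response, was found in 0 of the 28 members and in 0.91% of all genes. TGACNNNGC, part of an antioxidant response element, was found in 3 (Sesn2, Ak1 and Eda2r, 10.7%) against 11.5%, and TATAAA in 1 (Eda2r, 3.57%) against 14.3%. CCAAT was found in 17 (60.7%) against 37.5%, namely in 7 of the 9 called and 10 of the 19 uncalled members, and GGGCGG in 22 (78.6%) against 35.4%, in 5 of 9 and 17 of 19. The background holds noncoding genes too, and a gene counts if any of its windows matches, so its shares are not those of genes like the members.

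Within groups, the slope of each target on the leukocyte and muscle marker levels was examined after seeing the data. On the leukocyte level 0 targets had a called slope in allografts (1.68% of all genes) and 8 in primary tumours (21.6%), among them Dcxr (0.91 log2 units per log2 unit, SE 0.16, edgeR adjusted p = 9.93e-05), Ccng1 (0.90) and Fas (0.82), with Ckap2 at -0.62. On the muscle level 3 had one in allografts (4.40%), namely Gadd45a, Ak1 and Eda2r, and 8 in primary tumours (13.7%), among them Ak1 (0.24) and Ccng1 (0.16). Gdf15, Mdm2 and Sesn2 were called on neither level in either tumour kind. Per kilobase of exon, Rps27l had the highest level of the 35 targets in each of the 8 groups.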
